A study of Mus musculus with 31 samples.

Results

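MicroRNAs mmu-miR-192-5p and mmu-miR-194-5p are followed here across 31 small RNA libraries of the mouse right hippocampus. They are 2 of the 1966 mature microRNAs in the deposited count tables. They were chosen by their measured values: miR-192-5p because it was high in part of the knockout water libraries, and miR-194-5p because it was high with exercise in wild-type mice. Those contrasts are therefore given as descriptions without p-values. All mice were of the C57Bl/6 J strain and either lacked the serotonin transporter (5-HTT knockout, KO) or were wild type (WT). There were 5 KO-exercise, 2 KO-corticosterone and 6 KO-water libraries, and 5 WT-exercise, 6 WT-corticosterone and 7 WT-water libraries. Exercise or corticosterone, the rodent counterpart of cortisol, lasted 4 weeks, and water was the untreated condition in standard housing. Ages and sexes are not given in the sources used here, and the knockout is of the whole animal as far as the labels say. The transporter mRNA is not a feature of these tables, so the genotype labels were not checked from the counts.

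MicroRNAs are cut from hairpin precursors and lower the output of messenger RNAs that pair with their seed, bases 2 to 8 of the mature strand. MiR-192 and miR-194 come from neighbouring hairpins that are transcribed together, and a second pair of hairpins makes miR-215, a relative of miR-192, and another copy of miR-194. The pairs are best known from liver, kidney and gut epithelium, where they are abundant, and their primary transcripts can be induced by p53. In bulk tissue, fewer cells of a type and less of a microRNA per cell cannot be told apart.

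The sequences below show the 5p strands of both pairs and the 3p strands that tell the miR-194 copies apart, with the seed in capitals. They are RefSeq sequences on the GRCm38.p6 build, written 5′ to 3′.
mmu-miR-192-5p: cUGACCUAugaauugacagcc
mmu-miR-215-5p: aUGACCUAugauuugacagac
mmu-miR-194-5p: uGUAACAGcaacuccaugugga
mmu-miR-194-1-3p: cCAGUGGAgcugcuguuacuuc
mmu-miR-194-2-3p: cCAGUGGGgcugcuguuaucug

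MiR-192-5p and miR-215-5p share the seed UGACCUA and are identical at 18 of 21 positions. Counted from the 5′ end of miR-192-5p, the substitutions in miR-215-5p are C1A, A12U and C20A. No other mature microRNA of the tables has the seed of miR-194-5p, GUAACAG. Mir192 lies at chr19:6264844-6264932 on the plus strand, 115 bases after Mir194-2 at chr19:6264643-6264728. Neither hairpin overlaps an annotated gene, and the nearest, Atg2a, lies 2308 bases from Mir194-2. The mature miR-192-5p occupies chr19:6264857-6264877. On chromosome 1, Mir194-1 at chr1:185313319-185313385 precedes Mir215 at chr1:185313581-185313692 by 195 bases. That pair lies within an intron of Iars2, an isoleucyl-tRNA synthetase gene on the opposite strand. It is also covered by the noncoding transcript 2010103J01Rik on the plus strand, with Mir194-1 in its intron and Mir215 in its exon.

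Both hairpins Mir194-1 and Mir194-2 yield the same miR-194-5p, at chr1:185313325-185313346 and at chr19:6264658-6264679, so its count cannot be divided between them. The 3p strands differ, with the substitutions A8G, C19U, U20C and C22G in miR-194-2-3p, counted from the 5′ end of miR-194-1-3p. MiR-194-2-3p had 27 counts in 17 libraries. MiR-194-1-3p had 0 counts in all 31 libraries, which allows up to 0.0447 CPM (counts per 1000000 counts of the library or group) over the 67172273 counts, with no further scaling. The 3p strands thus gave counts from the chromosome 19 copy and none from the chromosome 1 copy, at a depth of a few counts per library.

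The 5p strands held almost all counts of these hairpins. MiR-192-5p had 8291 counts over the 31 libraries, against 142 for miR-192-3p, or 98.3% of the strand pair (95% Wilson interval 98.0 to 98.6%). MiR-194-5p had 7500 counts, 99.6% of the counts of its strands (99.5 to 99.7% by the same method). MiR-215-5p, which would bind the same seed matches as miR-192-5p, had 49 counts in 18 libraries, and miR-215-3p had 0 counts, with the same limit of 0.0447 unscaled CPM. MiR-192-5p made up 99.4% of the counts of the shared seed (99.2 to 99.6%). These intervals and limits cover counting error only. By summed count, miR-192-5p stood at rank 233 and miR-194-5p at rank 239 of the 1966 rows.

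The minor strands were too rare to follow by library. MiR-192-3p had 3.98 unscaled CPM in KO-corticosterone (95% exact Poisson interval 2.27 to 6.46), 1.59 in KO-water (0.982 to 2.42) and 1.77 in WT-water (1.23 to 2.46), summed over each group. MiR-192-3p had 1.60 ± 0.611 CPM in KO-water 3, 4 and 6, where miR-192-5p was highest, and 1.60 ± 1.06 CPM in KO-water 1, 2 and 5 (SD). Of its 21 KO-water counts, 8 lay in replicates 3, 4 and 6, or 38.1% (95% exact binomial interval 18.1 to 61.6%). For miR-192-5p the share was 72.2% (70.4 to 74.0%), and these libraries held 41.8% of all KO-water counts. MiR-192-5p was chosen by its level in these libraries, and the intervals cover counting error, not the spread between libraries. No difference between the strands is therefore read from these shares. MiR-215-5p had between 0.106 unscaled CPM in KO-exercise (0.00269 to 0.592) and 1.30 in WT-corticosterone (0.728 to 2.15). MiR-215-5p, from the other pair of hairpins, averaged 2.37 ± 0.743 CPM in KO-water 3, 4 and 6 and 0.395 ± 0.349 CPM in KO-water 1, 2 and 5 (SD), and the sets did not overlap. This rests on 13 and 3 counts, or a share of 81.2% in replicates 3, 4 and 6 (54.35 to 95.95%). How many of all microRNAs part these sets was not counted.

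Total counts assigned to microRNAs lay between 1011285 and 4052174 per library, and each member had from 58 to 754 counts in a library. Unless called unscaled, levels are given in CPM after TMM scaling over all 31 libraries. No pair of libraries of a group agreed within sampling noise, so each counted as 1 replicate. The p-values measure the spread between these libraries, which the labels name as biological replicates. Libraries within a group were spread unevenly: the main axis of within-group variation, computed without the rows of these hairpins, held 49.3% of the variance of 462 microRNAs. The KO-water libraries stood at both ends of it, replicates 3, 4 and 6 at 7.44 to 12.8 and replicates 1, 2 and 5 at -10.7 to -10.1. Only replicates 3, 4 and 6 are in the deposited table of KO-water and WT-water. Results that rest on KO-water are therefore given for all 6 libraries and for each set of 3.

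MiR-192-5p was highest in 3 KO-water libraries and varied among the others. It reached 299, 306 and 361 CPM in KO-water 3, 4 and 6, against 96.2, 64.8 and 97.9 CPM in KO-water 1, 2 and 5. The KO-exercise libraries had 106, 132.1, 101, 156 and 80.4 CPM, and the KO-corticosterone libraries had 122 and 135 CPM. The WT-exercise libraries had 60.5, 91.8, 216, 162 and 170 CPM. WT-corticosterone spanned 69.2 to 183 CPM with a median of 136, and WT-water spanned 68.2 to 102.6 CPM with a median of 76.7. The 3 high KO-water libraries lay above every other library of the series, while the 3 low ones lay in or just below the WT-water range. MiR-192-5p averaged 204 ± 131.5 CPM in KO-water (SD, n = 6), 140 ± 62.8 in WT-exercise (n = 5), 129.5 ± 47.5 in WT-corticosterone (n = 6), 128.2 ± 9.14 in KO-corticosterone (n = 2), 115 ± 29.4 in KO-exercise (n = 5) and 81.2 ± 12.7 in WT-water (n = 7). Neighbours in this order overlapped throughout.

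MiR-194-5p was lowest in WT-water and in the same 3 KO-water libraries that were low for miR-192-5p. It had 118, 202, 138, 177 and 138 CPM in the KO-exercise libraries and 117 and 125 CPM in the KO-corticosterone libraries. It had 186, 137 and 204 CPM in KO-water 3, 4 and 6, against 52.4, 49.7 and 49.9 CPM in KO-water 1, 2 and 5. The KO-water libraries thus fell into 2 sets that did not overlap, and the low set differed little among itself, at 50.65 ± 1.48 CPM (SD, n = 3). MiR-451a, miR-144-5p and miR-486a-5p, described below, also parted these sets without overlap, and the share of all microRNAs that do was not counted.

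The WT-exercise libraries had 120, 109, 247, 187 and 173.9 CPM of miR-194-5p. WT-corticosterone spanned 71.04 to 205 CPM with a median of 153, and WT-water spanned 33.4 to 66.2 CPM with a median of 52.95. Every treated wild-type library lay above every WT-water library. The share of all microRNAs for which this holds was not counted. MiR-194-5p averaged 167 ± 55.7 CPM in WT-exercise (SD, n = 5), 154.5 ± 33.9 in KO-exercise (n = 5), 147 ± 54.0 in WT-corticosterone (n = 6), 121 ± 5.81 in KO-corticosterone (n = 2), 113 ± 71.9 in KO-water (n = 6) and 53.6 ± 10.9 in WT-water (n = 7). Neighbours in this order also overlapped.

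**Figure D1:**
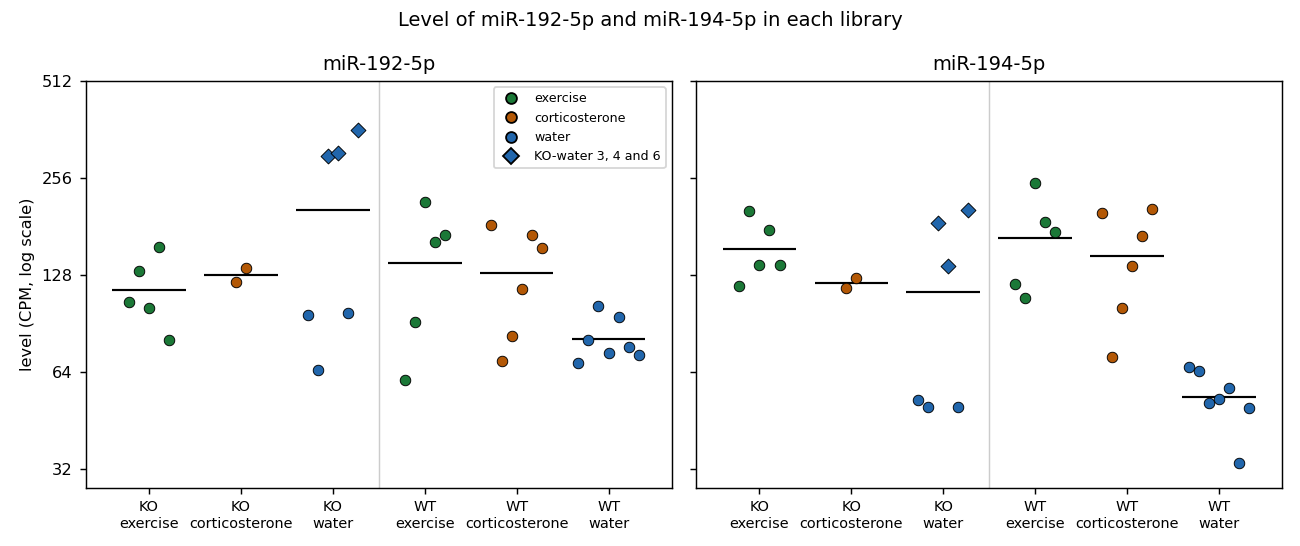
Level of miR-192-5p (left) and miR-194-5p (right) in CPM on a log scale, with 1 point per library and a line at the arithmetic mean of each group; diamonds are KO-water 3, 4 and 6. The diamonds lie at 299 to 361 CPM for miR-192-5p, above every other library, and at 137 to 204 CPM for miR-194-5p, within the range of the treated libraries.

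The balance between the members differed between treated and water libraries in both genotypes. The ratio of miR-192-5p to miR-194-5p counts does not depend on library size or scaling. Its absolute value is not a molar ratio, since ligation to adapters favours some small RNAs over others. The ratio ranged from 0.505 to 1.08 in the 18 libraries of exercised or corticosterone-treated mice, with a median of 0.870, and from 1.03 to 2.29 in the 13 water libraries, with a median of 1.66. It was below 1 in 15 treated libraries and above 1 in all 13 water libraries. Within each genotype, the ratios of the treated and the water libraries did not overlap, but in wild type they nearly met. WT-corticosterone 5 had 1.006 (320 and 318 counts) and WT-water 1 had 1.03 (237 and 230 counts), so the separation there is slim. How many other pairs of microRNAs have ratios that part treated from water libraries was not counted. Since the ratio of the members contains the contrasts they were chosen by, no p is given for it.

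By group, the ratio averaged 0.7497 ± 0.137 in KO-exercise, 1.06 ± 0.0247 in KO-corticosterone and 1.79 ± 0.318 in KO-water (SD; n = 5, 2 and 6). In wild type it averaged 0.813 ± 0.180 after exercise, 0.888 ± 0.0953 after corticosterone and 1.58 ± 0.439 with water (n = 5, 6 and 7). The KO-water sets that differed in the level of both members had similar ratios: 1.61, 2.24 and 1.77 in KO-water 3, 4 and 6, against 1.84, 1.31 and 1.96 in KO-water 1, 2 and 5. These sets overlapped in the ratio but not in either level. Both KO-corticosterone libraries, at 1.04 and 1.08, lay above all 5 KO-exercise libraries and above all 6 WT-corticosterone libraries. The highest WT-corticosterone ratio was close to them, at 1.006. How many other pairs of microRNAs part these groups by their ratio was not counted.

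**Figure D2:**
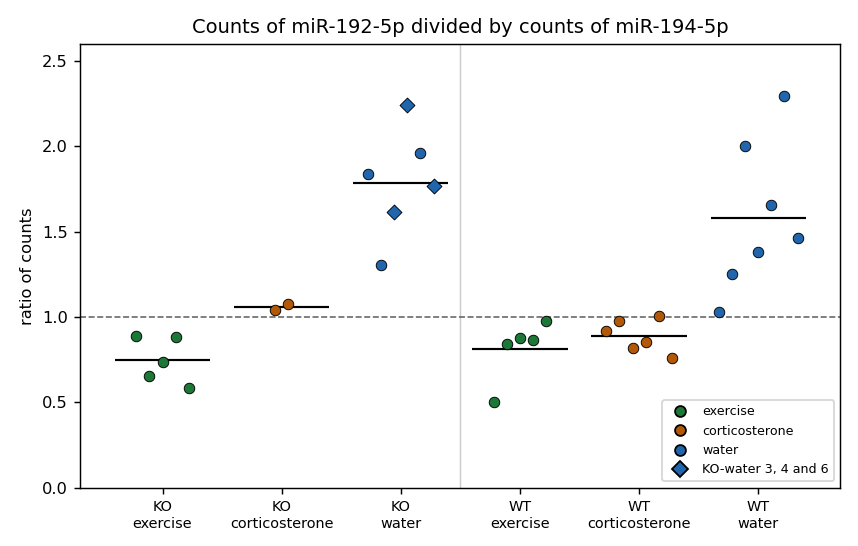
Counts of miR-192-5p divided by counts of miR-194-5p in each library, with a line at the mean of each group and a dashed line at 1; diamonds are KO-water 3, 4 and 6. Exercise and corticosterone libraries lie at 0.505 to 1.08 and water libraries at 1.03 to 2.29, with the diamonds among the other water libraries.

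In wild type, both treatments came with higher levels of both members than water, and miR-194-5p showed the larger difference. The log2 fold change of miR-194-5p was 1.71 ± 0.22 in WT-exercise against WT-water (SE, edgeR), at rank 5 of 553 microRNAs tested. For miR-192-5p it was 0.86 ± 0.26, at rank 61. All 5 WT-exercise libraries lay above all 7 WT-water libraries for miR-194-5p, but only 3 of 5 did so for miR-192-5p, and 1 lay below all of them. In that comparison 32.5% of the microRNAs tested were called at an adjusted p below 0.05 (edgeR quasi-likelihood test, Benjamini-Hochberg). Because the choice of the members used this contrast, nothing is read from the members' place in it.

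In WT-corticosterone against WT-water, the log2 fold change was 1.51 ± 0.24 (SE) for miR-194-5p, at rank 8 of 547, and 0.73 ± 0.22 for miR-192-5p, at rank 80. All 6 WT-corticosterone libraries lay above all 7 WT-water libraries for miR-194-5p, and 4 of 6 did so for miR-192-5p. Here 41.9% of the microRNAs tested were called. Both wild-type comparisons share the WT-water libraries, so they are not independent of each other or of the choice. MiR-132-3p, an activity-induced neuronal microRNA, had a log2 fold change of 1.13 ± 0.14 with exercise and 0.58 ± 0.17 with corticosterone in the same fits. MiR-128-3p, in the same list of 5 neuronal microRNAs, had -0.70 ± 0.20 and -0.59 ± 0.19, and miR-138-5p had 0.49 ± 0.19 and 0.52 ± 0.16. With exercise 1 of the 5 was called higher and 1 lower, and with corticosterone 2 were called higher and 1 lower. The median log2 fold changes of the 5 were 0.04 and 0.11, beside 0.04 and 0.06 over all microRNAs tested.

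In knockout mice, miR-194-5p did not pass the test under either treatment when all 6 KO-water libraries were used in a fit by group alone. The log2 fold change in KO-exercise against KO-water was 0.51 ± 0.41 (SE), with an adjusted p of 0.594 by the edgeR quasi-likelihood test. The comparison called 4.02% of the 523 microRNAs tested, 16 higher and 5 lower, and miR-194-5p was not among them. In KO-corticosterone against KO-water the log2 fold change was -0.02 ± 0.64, with an adjusted p of 0.99 (edgeR), and 0.521% of 576 microRNAs were called. With the same libraries, the main axis of within-group variation described above was also added as a term. MiR-194-5p then passed the test in KO-exercise (log2 fold change 0.73, adjusted p = 0.00111, edgeR). The axis came from these and the other libraries with group means removed, so it takes up spread the test is measured against. The SE fell from 0.41 to 0.14, and nothing is read from that p. MiR-194-5p passed in KO-corticosterone when the replicate number was a block (1.21, adjusted p = 0.0132, edgeR). The labels tie those numbers to no shared animal or day. Only KO-water 1 and 2, both of the low set, share a number with a KO-corticosterone library, so that fold change rests on them. Nothing is read from its p. MiR-192-5p had log2 fold changes of -0.78 ± 0.45 in KO-exercise and -0.80 ± 0.71 in KO-corticosterone against KO-water. These are given without p, since KO-water libraries took part in the choice of miR-192-5p.

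The knockout fold changes depended on the set of KO-water libraries. Against KO-water 1, 2 and 5 alone, miR-194-5p had a log2 fold change of 1.64 ± 0.24 (SE) in KO-exercise and 1.19 ± 0.22 in KO-corticosterone. MiR-192-5p had 0.44 ± 0.26 in KO-exercise and 0.51 ± 0.25 in KO-corticosterone against those 3 libraries. All 5 KO-exercise and both KO-corticosterone libraries lay above these 3 for miR-194-5p. Those comparisons called 21.7% of 544 and 7.08% of 565 microRNAs. How many of all microRNAs part these libraries without overlap was not counted. No p is given for the members there, because the division of KO-water by table coincides with the members' own levels.

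Against KO-water 3, 4 and 6 alone, the fold changes of the members were lower. The log2 fold change of miR-194-5p was -0.23 ± 0.22 (SE) in KO-exercise and -0.63 ± 0.21 in KO-corticosterone. That of miR-192-5p was -1.55 ± 0.23 in KO-exercise and -1.43 ± 0.19 in KO-corticosterone. For miR-192-5p, every treated knockout library lay below these 3 KO-water libraries. These comparisons called 32.8% of 540 and 19.2% of 543 microRNAs, and the share of all microRNAs without overlap was not counted. With either set the fold change of miR-194-5p was the higher of the pair. Whether the treatments act differently on the members in the 2 genotypes was not tested, since the wild-type contrast chose miR-194-5p.

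**Figure D3:**
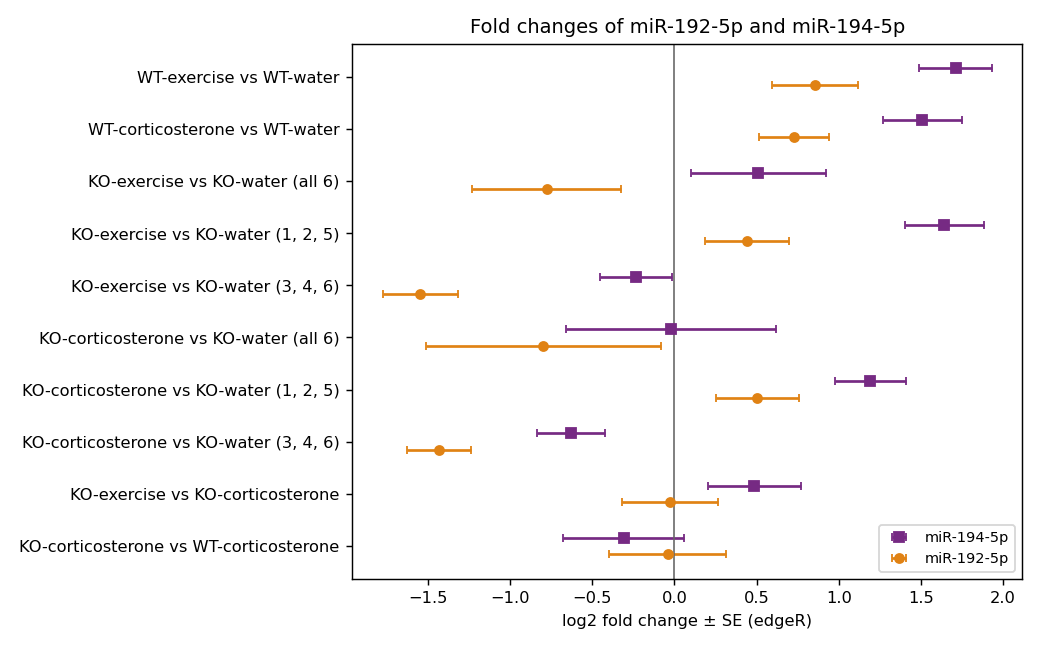
Log2 fold changes (points) and their standard errors (bars) from edgeR for miR-194-5p (squares) and miR-192-5p (circles); numbers in brackets name the KO-water replicates used. Among the comparisons drawn, miR-194-5p lies right of miR-192-5p except in KO-corticosterone against WT-corticosterone, and both members move to higher values when KO-water 1, 2 and 5 replace KO-water 3, 4 and 6.

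Between genotypes under water, the result also followed the KO-water set. KO-water 3, 4 and 6 lay above all 7 WT-water libraries for both members. In that comparison, made on the libraries of its deposited table, the log2 fold change was 2.20 ± 0.14 (SE) for miR-192-5p, at rank 7 of 581 microRNAs, and 1.91 ± 0.17 for miR-194-5p, at rank 17. As many as 60.9% of the microRNAs tested were called in it. How many of them parted these libraries without overlap was not counted. Against the same WT-water libraries, KO-water 1, 2 and 5 had log2 fold changes of 0.08 ± 0.17 for miR-192-5p and -0.10 ± 0.19 for miR-194-5p, and overlapped WT-water for both. With all 6 KO-water libraries the values were 1.40 ± 0.37 for miR-192-5p and 1.12 ± 0.36 for miR-194-5p. The high KO-water libraries had totals of 1277046 to 2319193 counts, and the low ones 2043781 to 3254739. The part of depth in the difference was not tested.

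Comparisons that used none of the libraries behind the choice of miR-192-5p gave no called difference. In KO-corticosterone against WT-corticosterone, the log2 fold change was -0.04 ± 0.35 (SE) for miR-192-5p and -0.31 ± 0.37 for miR-194-5p (adjusted p = 0.9996 for both, edgeR). Both KO-corticosterone libraries lay inside the WT-corticosterone range for both members. EdgeR called 0% of 552 microRNAs, 9 had an unadjusted p below 0.05, and DESeq2 called 0. In KO-exercise against KO-corticosterone, the log2 fold change was -0.03 ± 0.29 for miR-192-5p and 0.49 ± 0.28 for miR-194-5p (adjusted p = 0.9985 for both, edgeR), and 4 of 5 KO-exercise libraries lay above both KO-corticosterone libraries for miR-194-5p. Here edgeR called 0% of 550 microRNAs, 13 had an unadjusted p below 0.05, and DESeq2 called 0. MiR-192-3p was tested only here, with a log2 fold change of -0.62 ± 0.75 and an adjusted p of 0.9985 (edgeR). With 2 KO-corticosterone libraries, even the difference of 0.49 was not detectable, and these results do not show that the levels were alike.

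The members varied together among libraries of the same group. After each group's mean of log2(CPM + 1) was removed, miR-192-5p and miR-194-5p correlated over the 31 libraries with a Pearson r of 0.888 and a Spearman rho of 0.871. No p is given for these, because the KO-water libraries that took part in the choice are among them and form separate high and low sets. Over the 25 libraries outside KO-water, r was 0.785 and rho 0.771 (permutation within groups, 100000 resamples, two-sided p = 0.00026 and 0.00049, unchanged by Benjamini-Hochberg adjustment over 3 relations). Those 25 include the WT-exercise and WT-water libraries used in the choice of miR-194-5p. Their group means were removed, but the p-values are not wholly apart from that choice. Over the 31 libraries without the 2 farthest from the median of miR-192-5p, KO-water 2 and 6, r was 0.859. The sample codes begin with G or H, letters of no stated meaning. Over the 20 G libraries r was 0.902 and rho 0.857, and over the 11 H libraries r was 0.910 and rho 0.545. Both letters include KO-water libraries, so no p is given for either. Among the H libraries, 32 arrangements within groups allow no permutation p below 0.0625, so such a test could not decide there.

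**Figure D4:**
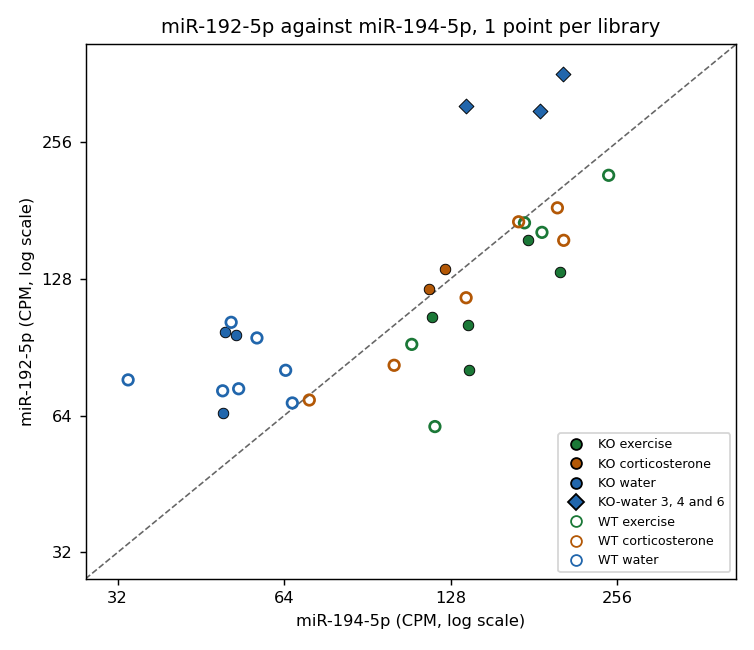
MiR-192-5p against miR-194-5p, both in CPM on log scales, 1 point per library; filled points are KO, open points WT, and diamonds KO-water 3, 4 and 6. The dashed line marks equal levels: water libraries lie above it and most treated libraries below it, while both kinds run along it from low to high.

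Both members also followed the main axis of within-group variation, which was computed from other microRNAs after the data were seen. The Pearson r with the axis score was 0.909 for miR-192-5p (rho 0.905) and 0.897 for miR-194-5p (rho 0.907), over 31 libraries with group means removed. No p is given over these libraries, which include KO-water. Without KO-water, r was 0.857 for miR-192-5p (permutation p = 0.00019, adjusted p = 0.00026 over the 3 relations) and 0.852 for miR-194-5p (permutation p = 1e-05, the smallest that 100000 resamples can give, and adjusted p = 3e-05). The rho values were 0.8415 and 0.844 (permutation p = 0.00019 and 6e-05). The libraries outside KO-water again include the WT-exercise and WT-water libraries used in the choice of miR-194-5p. Within letter G r was 0.9095 for miR-192-5p and 0.935 for miR-194-5p. Within letter H r was 0.926 and 0.910, and rho was 0.9455 and 0.582. Both letters include KO-water libraries, so no p is given for either. Without KO-water 4 and WT-exercise 2, the libraries farthest along the axis, r was 0.9165 and 0.908. WT-water libraries scarcely spread along the axis, from -0.789 to 0.732, whereas WT-exercise spanned -12.1 to 10.9. What the axis measures in the tissue or the libraries was not tested.

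**Figure D5:**
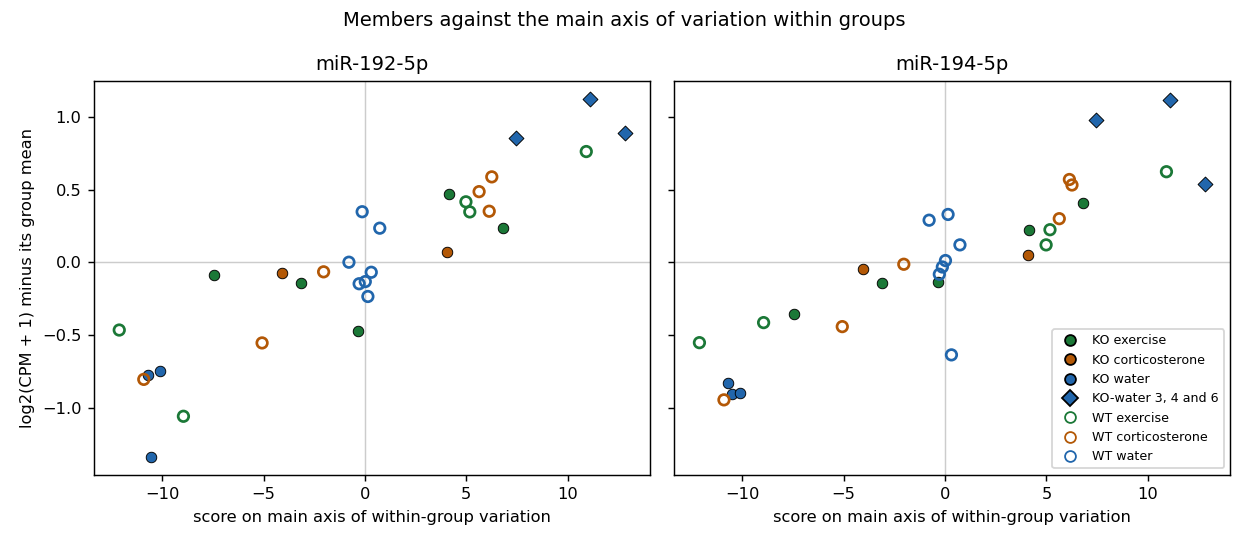
Deviation of miR-192-5p (left) and miR-194-5p (right) from the group mean of log2(CPM + 1), against the library's score on the main axis of within-group variation; filled points are KO, open points WT, and diamonds KO-water 3, 4 and 6. Both members rise along the axis with r of 0.909 and 0.897, and the KO-water libraries occupy both ends.

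Other microRNAs had profiles closer to each member than the members had to each other. Among 463 microRNAs with a mean of at least 10 CPM, the Spearman correlation of miR-192-5p over the 31 libraries was highest with miR-421-3p (0.865), miR-191-5p (0.859), miR-935 (0.855), miR-142a-5p (0.85), a microRNA of blood-derived cells, and miR-672-5p (0.848). MiR-194-5p ranked 49, with a rho of 0.757. For miR-194-5p the highest were miR-16-5p (0.942), a microRNA of the miR-15 family, miR-139-5p (0.941), miR-421-3p (0.926), miR-409-3p (0.913) and miR-138-2-3p (0.913), and miR-192-5p ranked 64. With group means removed, miR-421-3p was closest to both, with a rho of 0.926 to miR-192-5p and 0.938 to miR-194-5p. It was followed by miR-935 (0.923) and miR-342-3p (0.919) for miR-192-5p, and by miR-138-2-3p (0.933) and miR-16-5p (0.931) for miR-194-5p. On that scale miR-194-5p ranked 15 for miR-192-5p, and miR-192-5p ranked 19 for miR-194-5p. These correlations describe libraries that share depth and scaling, and no p is given.

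These microRNAs differed in how large their wild-type exercise and KO-water values were. MiR-16-5p had log2 fold changes of 1.60 ± 0.25 (SE) in WT-exercise against WT-water and 1.65 ± 0.12 in KO-water 3, 4 and 6 against WT-water. MiR-421-3p had 1.25 ± 0.27 and 2.28 ± 0.13 in these comparisons, and miR-935 had 0.79 ± 0.27 and 2.00 ± 0.09. The corresponding pairs were 1.71 and 1.91 for miR-194-5p, and 0.86 and 2.20 for miR-192-5p. MiR-194-5p and miR-16-5p had wild-type exercise values close to their KO-water values, while miR-192-5p, miR-421-3p and miR-935 had lower ones. These comparisons share the WT-water libraries.

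Of the liver and epithelial lists, some microRNAs were rare and others were as abundant as the members. MiR-122-5p, the defining microRNA of hepatocytes, lay between 1.05 and 15.2 CPM in the 31 libraries, and its 3p strand had 1 count in all. The other liver microRNAs were higher, with a median of 117 CPM for miR-148a-3p and 2390 CPM for miR-101b-3p, and both are also found outside the liver. Of the 9 epithelial microRNAs, miR-200c-3p lay between 0 and 13.3 CPM and miR-141-3p between 0 and 8.40 CPM. MiR-31-5p was the most abundant at a mean of 502 CPM, miR-203-3p had a median of 99.1 CPM, and miR-200a-3p lay between 12.2 and 117 CPM. The neuronal miR-124-3p averaged 244300 CPM and was the most abundant of the hippocampal neuron list.

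Some liver microRNAs were called higher in some comparisons, and none in others. In KO-water 3, 4 and 6 against WT-water, 2 of 3 tested liver microRNAs were called higher, miR-101b-3p (log2 fold change 0.50 ± 0.12, SE) and miR-148a-3p (0.58 ± 0.19), while miR-122-5p had -0.20 ± 0.35. In WT-corticosterone against WT-water, miR-122-5p (0.77 ± 0.26) and miR-148a-3p (0.55 ± 0.20) were called higher, 2 of 3 tested, and in WT-exercise against WT-water none of 3 was. Over all microRNAs tested, 60.9%, 41.9% and 32.5% were called in these comparisons, in either direction. In KO-exercise, miR-122-5p was called higher against KO-water 1, 2 and 5 (1.59 ± 0.52, adjusted p = 0.0477, edgeR), where 21.7% of all were called. No liver microRNA was called against all 6 KO-water libraries in KO-exercise (2 tested) or KO-corticosterone (3 tested). The summed liver markers lay at 2613 to 3827 CPM in KO-water 3, 4 and 6, against 1935 to 3421 CPM in KO-water 1, 2 and 5 and 1993 to 3080 CPM in WT-water, most of it from miR-101b-3p. The part of liver-type RNA in the members' levels was not tested.

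Summed epithelial markers lay at 875 to 1121 CPM in KO-water 3, 4 and 6, against 677 to 769 CPM in KO-water 1, 2 and 5 and 667 to 861 CPM in WT-water. In WT-exercise they lay at 591 to 805 CPM. In KO-water 3, 4 and 6 against WT-water, 2 of 7 tested epithelial microRNAs were called higher (miR-203-3p and miR-31-5p) and 3 lower (miR-375-3p, miR-205-5p and miR-200a-3p). The median log2 fold change of the 7 was -0.41, beside 0.03 over all microRNAs tested, of which 60.9% were called. In WT-exercise against WT-water, miR-203-3p was called higher (0.70 ± 0.18, SE) and miR-375-3p lower (-0.84 ± 0.28), of 6 tested. In WT-corticosterone against WT-water, 1 of 6 was called, miR-203-3p (0.89 ± 0.22). Over all microRNAs tested, 32.5% and 41.9% were called in these wild-type comparisons. In KO-corticosterone against KO-water 1, 2 and 5, miR-200c-3p was called higher (2.85 ± 0.61, adjusted p = 0.0325, edgeR). It was the 1 of 8 tested, where 7.08% of all were called, and rests on 35 and 8 counts. Against all 6 KO-water libraries it had 2.38 ± 0.71 (adjusted p = 0.496, edgeR). No epithelial microRNA was called in KO-exercise against KO-water, with all 6 libraries or with 1, 2 and 5. The part of epithelial RNA in the members' levels was not tested.

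Red blood cell microRNAs differed in both directions between the KO-water sets. MiR-451a, the main erythrocyte microRNA, lay at 421 to 564 CPM in KO-water 3, 4 and 6, against 1131 to 1510 CPM in KO-water 1, 2 and 5, and miR-144-3p was also lower, at 27.2 to 27.8 CPM against 44.97 to 98.9 CPM. MiR-144-5p was higher, at 28.8 to 37.3 CPM in KO-water 3, 4 and 6 against 13.6 to 15.9 CPM in KO-water 1, 2 and 5, and so was miR-486a-5p, whose mature sequence miR-486b shares so that its counts are uncertain, at 44.05 to 54.6 CPM against 16.2 to 19.4 CPM. Against WT-water, replicates 3, 4 and 6 had log2 fold changes of -1.54 ± 0.24 (SE) for miR-451a and -1.20 ± 0.27 for miR-144-3p, and of 1.43 ± 0.22 for miR-144-5p and 1.62 ± 0.17 for miR-486a-5p. All 4 were called there, as were 60.9% of all microRNAs tested. The sum of the 4, most of it miR-451a, lay at 533 to 664 CPM in KO-water 3, 4 and 6, against 1208 to 1643 CPM in KO-water 1, 2 and 5 and 1187 to 2439 CPM in WT-water.

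In the treated groups the red blood cell sum lay at 399 to 945 CPM in KO-exercise, 585 to 710 in KO-corticosterone, 441 to 1827 in WT-exercise and 516 to 1168 in WT-corticosterone. MiR-451a was called lower in WT-exercise (-1.03 ± 0.34) and in WT-corticosterone (-1.24 ± 0.22) against WT-water. In WT-corticosterone miR-144-5p (0.89 ± 0.22) and miR-486a-5p (0.59 ± 0.22) were called higher. Of all microRNAs tested, 32.5% were called in WT-exercise and 41.9% in WT-corticosterone, in either direction. Against KO-water 1, 2 and 5, miR-451a was lower in KO-exercise (-1.35 ± 0.26, adjusted p = 0.00664, edgeR) and in KO-corticosterone (-1.30 ± 0.24, adjusted p = 0.0225, edgeR). It was the 1 of 4 called in each, where 21.7% and 7.08% of all microRNAs tested were called. Against all 6 KO-water libraries none of the 4 was called, with -0.78 ± 0.36 for miR-451a in KO-exercise (adjusted p = 0.308, edgeR) and -0.76 ± 0.50 in KO-corticosterone (adjusted p = 0.792, edgeR). The shares of all microRNAs called there were 4.02% and 0.521%. The part of blood content in the members' levels was not tested.

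Summed choroid plexus and ependymal microRNAs lay at 8227 to 9313 CPM in KO-water 3, 4 and 6, against 7264 to 22500 CPM in KO-water 1, 2 and 5 and 6647 to 25200 CPM in WT-water, led by miR-204-5p. Of the 6 tested, only miR-449a-5p was called against WT-water in WT-exercise (1.28 ± 0.26, SE) and in WT-corticosterone (1.17 ± 0.20). In KO-water 3, 4 and 6 against WT-water, miR-449a-5p was called higher (1.42 ± 0.23) and miR-211-5p lower (-1.40 ± 0.53). Over all microRNAs, 32.5%, 41.9% and 60.9% were called there. Of the miR-34 family members induced by p53, miR-34c-5p was the most abundant at 1528 CPM. MiR-34a-5p was called higher in WT-corticosterone against WT-water (0.34 ± 0.12), 1 of 3 tested where 41.9% of all were called, and none of the 3 was in WT-exercise or in KO-water 3, 4 and 6 against WT-water. None of 3 was called in KO-exercise against KO-water (4.02% of all), where miR-34a-5p had a log2 fold change of 0.31 ± 0.16 (adjusted p = 0.339, edgeR), nor in KO-corticosterone against KO-water (0.521% of all), where it had 0.63 ± 0.27 (adjusted p = 0.674). Of 5 neuronal microRNAs, 1 rose in KO-exercise against KO-water: miR-132-3p, by 0.80 ± 0.17 (adjusted p = 0.0138, edgeR), and the median log2 fold change of the 5 was 0.001, beside -0.01 over all microRNAs tested. In KO-water 3, 4 and 6 against WT-water, 2 of 5 were called higher, miR-124-3p (0.35 ± 0.12) and miR-138-5p (1.10 ± 0.11). MiR-128-3p (-1.055 ± 0.12) and miR-9-5p (-0.75 ± 0.17) were called lower there, where 60.9% of all were called.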

How the data were processed

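Small RNA libraries of the right hippocampus were made with an Ion Total RNA-Seq kit and read on an Ion Torrent S5, per the labels' protocols. The deposited files are 5 tables of raw counts for 1966 mature microRNAs. The submitters' processing notes name GRCm38 (mm10) and the tools cutadapt (version 2.3), limma (version 3.54.1), BWA, featureCounts and Subread, with no role or order; the sources used here do not say whether counting used strand. The 24 columns repeated between tables were identical, and the number of other per-sample columns was 0. In the table that pairs KO-water with WT-water, 1 column belongs to KO-exercise 4 by its label and was left out of that comparison.

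Each comparison was fitted with edgeR 4.0.16 in R 4.3.3 (filterByExpr by group, TMM, estimateDisp, robust glmQLFit, quasi-likelihood F test), with Benjamini-Hochberg adjustment over all microRNAs tested, calls at an adjusted p below 0.05, and SE from the F statistic. Comparisons across tables joined the counts. The procedure was tested on simulated data. Correlations used log2(CPM + 1) in scipy 1.17.1 with numpy 2.4.6. Sequences and hairpin positions are RefSeq's. Alternatives were DESeq2 1.42.0, limma-voom (limma 3.58.1), other scalings and filters, a joint fit, a replicate block, code letters and left-out libraries.

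The members, marker lists and tests were chosen with earlier results of these data known. Named microRNAs are the rows of the hairpins, for each member the 5 most alike in profile and the 3 most alike with group means removed, and of each marker list the most abundant and those called in a tested comparison; miR-122-5p, miR-141-3p, miR-200c-3p, miR-34a-5p and miR-451a were added as defining markers after their values were seen.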

Additional observations from a re-analysis of the deposited data

Results flagged for a closer look

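One value was picked out for lying far from the rest of its group. The ratio of miR-192-5p to miR-194-5p counts in WT-exercise 1 was 0.505, from 101 and 200 counts, and lay below the other WT-exercise libraries, which had 0.844 to 0.977. Of 15 groups of values examined in this way 1 was picked out, and chance alone picks out about 1 in 20.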

How the results depend on the processing

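The values changed with the set of KO-water libraries used. With KO-water 3, 4 and 6 alone, miR-194-5p had a log2 fold change of -0.23 in KO-exercise, and edgeR called 32.8% of the microRNAs tested there and 19.2% in KO-corticosterone. With KO-water 1, 2 and 5 alone, miR-192-5p had 0.44 and miR-194-5p 1.64 in KO-exercise, with 21.7% called, and 0.51 and 1.19 in KO-corticosterone, with 7.08% called. Against WT-water, these 3 gave 0.081 for miR-192-5p and -0.10 for miR-194-5p, all 6 gave 1.395 and 1.12, and the joint fit of all 6 groups gave 1.35 and 1.08. Without scaling factors KO-water 3, 4 and 6 gave 1.86 and 1.58 against WT-water, and within code letter G the values were 1.99 and 1.59. With the score on the main axis as a covariate, chosen after seeing the data, miR-194-5p passed the test in KO-exercise against KO-water (log2 fold change 0.73, adjusted p = 0.00111 by edgeR, over a range of 0.00111 to 0.997 across alternatives other than left-out libraries). The share called was then 23.3% there and 5.03% in KO-corticosterone against KO-water, where miR-194-5p had 0.29. The axis was computed from the same libraries with group means removed, so it takes up part of their spread, and nothing is read from these calls. Under this covariate miR-192-5p had 1.51 in KO-water against WT-water and 0.046 in KO-corticosterone against WT-corticosterone. The cause of these shifts was not tested.

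Fold changes near 0 changed sign. MiR-194-5p in KO-corticosterone against KO-water had 0.024 with DESeq2, 0.025 with its size factors, 0.18 without scaling factors, 0.29 with limma-voom, 0.044 without the count filter, 0.0013 at a mean of at least 10 CPM and 0.029 in the joint fit. MiR-192-5p in KO-corticosterone against WT-corticosterone had 0.016 without scaling factors and 0.035 with limma-voom, and in KO-exercise against KO-corticosterone 0.0009 with the code letter as a covariate. In WT-exercise against WT-water miR-194-5p had 2.15 within code letter H. Within letter H the correlation of the members was 0.910 for r and 0.545 for rho. It is given without p, since KO-water libraries are among those of letter H. The share called in KO-exercise against KO-water was 7.27% with DESeq2, 0.783% without the count filter, 6.38% in the joint fit, 0.557% within letter G and 0.177% within letter H. In KO-corticosterone against KO-water it was 1.39% with DESeq2, 1.28% in the joint fit and 0% within letter H, and in KO-exercise against KO-corticosterone 0.301% without the count filter.

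With the replicate number as a block, 1.53% were called in KO-exercise against KO-water, 13.5% in KO-corticosterone against KO-water and 1.27% in KO-exercise against KO-corticosterone. In that fit miR-192-5p had 0.66 and miR-194-5p 1.21 in KO-corticosterone against KO-water. There miR-194-5p passed the threshold (adjusted p = 0.0132 with the block and 0.99 without it, edgeR). Only KO-water 1 and 2, both of the low set, share a number with a KO-corticosterone library, so these fold changes rest on them. With the block, miR-192-5p had 0.13 in KO-corticosterone against WT-corticosterone and 0.058 in KO-exercise against KO-corticosterone. The labels tie the numbers to no shared animal, litter or day. In the 4 comparisons with 5 or 6 shared numbers, not every same-numbered pair correlated above 0.1 (range over pairs -0.419 to 0.65). Of the comparisons with 2 shared numbers, KO-exercise and KO-corticosterone had 0.458 and 0.471, KO-corticosterone and KO-water -0.258 and 0.331, and KO-corticosterone and WT-corticosterone -0.596 and -0.577.

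Leaving out 1 library at a time, miR-194-5p in KO-corticosterone against KO-water ranged from -0.19 to 0.27, with a positive value without KO-water 3, 4 or 6 or without KO-corticosterone 1. MiR-192-5p ranged from 1.98 to 2.20 in KO-water against WT-water, from -0.18 to 0.091 in KO-corticosterone against WT-corticosterone, and from -0.18 to 0.094 in KO-exercise against KO-corticosterone. The share called ranged from 2.42% (without KO-exercise 4) to 5.58% in KO-exercise against KO-water, and from 0% to 0.683% (without KO-corticosterone 1) in KO-exercise against KO-corticosterone. In all, 157 of the left-out-library values and 170 of the others stayed close to the reported value, or kept their direction and side of the threshold. Of the left-out-library values, 12 changed sign and 3 moved farther without a change of sign. Of the others, 21 changed sign, 29 moved farther, 2 newly passed the threshold and 1 no longer did. A fit within letter G or H was not possible for KO-corticosterone against WT-corticosterone. Each member had 58 to 754 counts per library, and the minor strands far fewer, so depth limits the minor strands most.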
